A study of Mus musculus with 19 samples.

Results

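MHC class I molecules and the machinery that loads them were followed through 10 genes in blood leukocytes of DBA/2 and B6 mice after CAWS administration. The genes are the heavy chains H2-K1, H2-D1 and H2-T23, the light chain B2m, the peptide transporter subunits Tap1 and Tap2, the loading factor Tapbp, and the inducible proteasome subunits Psmb8, Psmb9 and Psmb10. Every non-control probe whose gene name in the scanner files is one of these was taken, which gave 18 of the 41174 probes and 10 of 27745 named genes. All 18 probes were well above background on all 19 arrays, and none was saturated.

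CAWS is a water-soluble mannoprotein and beta-glucan fraction of Candida albicans that induces arteritis in mice, and it was injected intraperitoneally into male DBA/2 and B6 mice on consecutive days. The time right after the last injection is 0 w, so that every group had received CAWS and an uninjected group was not analysed here. Mice were studied at 0 w and at weeks 2, 4, 8 and 9 after it, with 2 samples in each group but B6 2 w and B6 9 w, which hold 1. Per the methods, arrays were hybridized with RNA of individual mice, 5 to 14 weeks old, and the mice of the later weeks are those that survived. The labels call the samples biological replicates.

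A class I molecule is a heavy chain paired with beta-2-microglobulin, and it shows peptides from inside the cell to CD8 T cells. The peptides are cut by the proteasome, pumped into the endoplasmic reticulum by the TAP transporter and loaded with the help of tapasin. Interferon-gamma is the classical inducer of the whole set, and under it the catalytic subunits encoded by Psmb8, Psmb9 and Psmb10 take the places of the constitutive ones. All but B2m, on chromosome 2, and Psmb10, on chromosome 8, lie in the H2 complex on chromosome 17. B6 mice carry the b haplotype of this complex and DBA/2 mice the d haplotype, so a difference between strains at every week was kept apart from changes with the weeks.

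Promoter sequences of RefSeq (build GRCm38.p6) were found for 9 of the 10 genes. They are shown for the heavy chains and B2m because all 4 had risen in DBA/2 mice by 4 w, and for the stretch between Tap1 and Psmb9 because both genes start from it in opposite directions. The windows searched held the bases from 250 before to 50 after each start. Capitals mark the letters AANNGAAA, the core bound by interferon regulatory factors, on either strand. This core was present in the windows of H2-K1, H2-D1, H2-T23 and B2m. It was not found in the windows of the other 5 genes, among them Tap1 and Psmb9. It is held by 23.9% of all 32817 promoter windows of this length. The windows of H2-K1 and H2-D1 are much alike in sequence. The kappa B consensus was found for H2-K1, H2-D1 and B2m, against 8.46%, and in the first 2 it lies just before the capitals. The printed sequences read 5′ to 3′ on the strand of the gene and stop at the base before the start. They come from the reference genome, which is that of B6 mice.
H2-K1, chr17:34000348-34000597, minus strand: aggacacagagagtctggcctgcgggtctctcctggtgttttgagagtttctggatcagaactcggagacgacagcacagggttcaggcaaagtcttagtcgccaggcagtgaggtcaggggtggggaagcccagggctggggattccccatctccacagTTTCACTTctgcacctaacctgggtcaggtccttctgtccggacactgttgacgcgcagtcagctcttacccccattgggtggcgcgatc
H2-D1, chr17:35262844-35263093, plus strand: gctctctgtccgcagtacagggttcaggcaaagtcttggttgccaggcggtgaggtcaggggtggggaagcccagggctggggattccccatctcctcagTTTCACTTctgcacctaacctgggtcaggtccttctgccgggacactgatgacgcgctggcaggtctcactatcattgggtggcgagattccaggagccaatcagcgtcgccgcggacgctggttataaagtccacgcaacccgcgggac
H2-T23, chr17:36032702-36032951, minus strand: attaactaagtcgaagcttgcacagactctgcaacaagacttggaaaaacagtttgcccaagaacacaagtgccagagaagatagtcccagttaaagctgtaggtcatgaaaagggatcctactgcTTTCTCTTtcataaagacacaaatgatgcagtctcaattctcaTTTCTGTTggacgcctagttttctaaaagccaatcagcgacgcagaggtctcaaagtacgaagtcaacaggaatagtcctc
B2m, chr2:122147437-122147686, plus strand: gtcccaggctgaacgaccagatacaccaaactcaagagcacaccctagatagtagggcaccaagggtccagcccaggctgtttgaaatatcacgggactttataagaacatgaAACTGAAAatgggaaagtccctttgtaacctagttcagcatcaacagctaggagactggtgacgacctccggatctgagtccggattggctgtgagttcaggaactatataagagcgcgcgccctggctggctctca
Between the starts of Psmb9 and Tap1, chr17:34187331-34187555, plus strand: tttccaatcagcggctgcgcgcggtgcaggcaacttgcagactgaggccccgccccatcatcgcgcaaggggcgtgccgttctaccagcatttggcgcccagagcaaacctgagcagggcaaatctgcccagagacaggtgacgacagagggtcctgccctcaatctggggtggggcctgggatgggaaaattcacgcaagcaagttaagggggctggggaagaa

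The arrays called between 33.9% and 51.4% of their spots well above background. Their number limits the precision of every value. With at most 2 samples in a group, groups without overlap are a description and not a test. The share of all probes that separate in this way is not given here. All replicates 1 were scanned on one day and all replicates 2 on another, on 6 slides. Summed levels of 7 hepatocyte markers, in multiples of each array's 75th percentile, were 34.6 to 35.3 in the B6 0 w samples and 14.4 to 15.6 in B6 8 w, and at most 1.11 in every other group, so the B6 0 w samples that serve as reference stand apart. The part of this in the B6 results was not tested. In both groups the 2 replicates lay close together in these sums. In log2 signals scaled as described below, Tap1 read -1.91 and -1.93 in the B6 0 w replicates. The 2 arrays of replicate 2 read -2.02 and -1.85. For the brightest Tapbp probe the replicates read 1.55 and 1.73 and the 2 arrays 1.74 and 1.71. Whether the spread used in the tests is that between mice was not tested. All 7 neutrophil markers tested rose in both strains in the average of the groups at 4 w and at 8 w. Of all probes, 9.80% rose so in DBA/2 mice and 7.28% in B6 mice. Summed levels of these markers were 104 to 105 at 0 w and 689 to 769 at 8 w in DBA/2 mice, and 54.8 to 54.9 and 421 to 423 in B6 mice. In the B6 0 w samples 4 to 5 of the 7 were well above background. Fewer cells of a type and less RNA per cell cannot be told apart in these bulk samples.

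In DBA/2 mice 6 of the 10 genes were higher in the average of the groups at 4 w and at 8 w than at 0 w, namely H2-K1, H2-D1, H2-T23, B2m, Tap1 and Psmb9. By the brightest probe of each gene, H2-D1, H2-T23 and B2m had passed the test by 2 w. Psmb8 and Psmb10 passed at 8 w alone, and Tap2 and Tapbp passed at no week. Values are normalized log2 signals, the log2 of the processed signal minus the array's 75th percentile, so that 0 is the brightness at that percentile. Tests were made with limma across all 22939 probes above background, with a threshold of 0.05 on the Benjamini-Hochberg adjusted p. At 2 w, 4 of the 18 probes were higher than at 0 w, against 7.90% of all probes tested. At 4 w, 10 were higher, against 7.58%. At 8 w, 13 were higher and none lower, against 10% of all probes (2298 of 22936) that were higher. At 9 w, 9 were higher, against 13.4%, but on the values without scaling between arrays 2 were higher and 4 lower. The late average, which is the average of the groups at 4 w and at 8 w, was higher than 0 w for 11 probes, against 9.80%, with a median log2 change of 0.51 over the 18 probes and of -0.14 over all probes. The 7 probes that did not pass belong to Tap2, Tapbp, Psmb8 and Psmb10 and include the third B2m probe. With slide as a block 14 probes passed, and with the replicate number, which marks the scan day and for these samples also the slide, 16 did, among them Tapbp (adjusted p = 0.0431), Psmb8 (adjusted p = 0.0476) and Psmb10 (adjusted p = 0.00864). The 9.80% belongs to the fit without a block. The shares of all probes under the block fits are not given here, so the 14 and 16 cannot be set against them. The 4 w count was 5 without DBA/2 4 w replicate 1 and 5 without either DBA/2 0 w sample. The 2 w count was 2 without either 2 w sample or without DBA/2 0 w replicate 2.

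**Figure D1:**
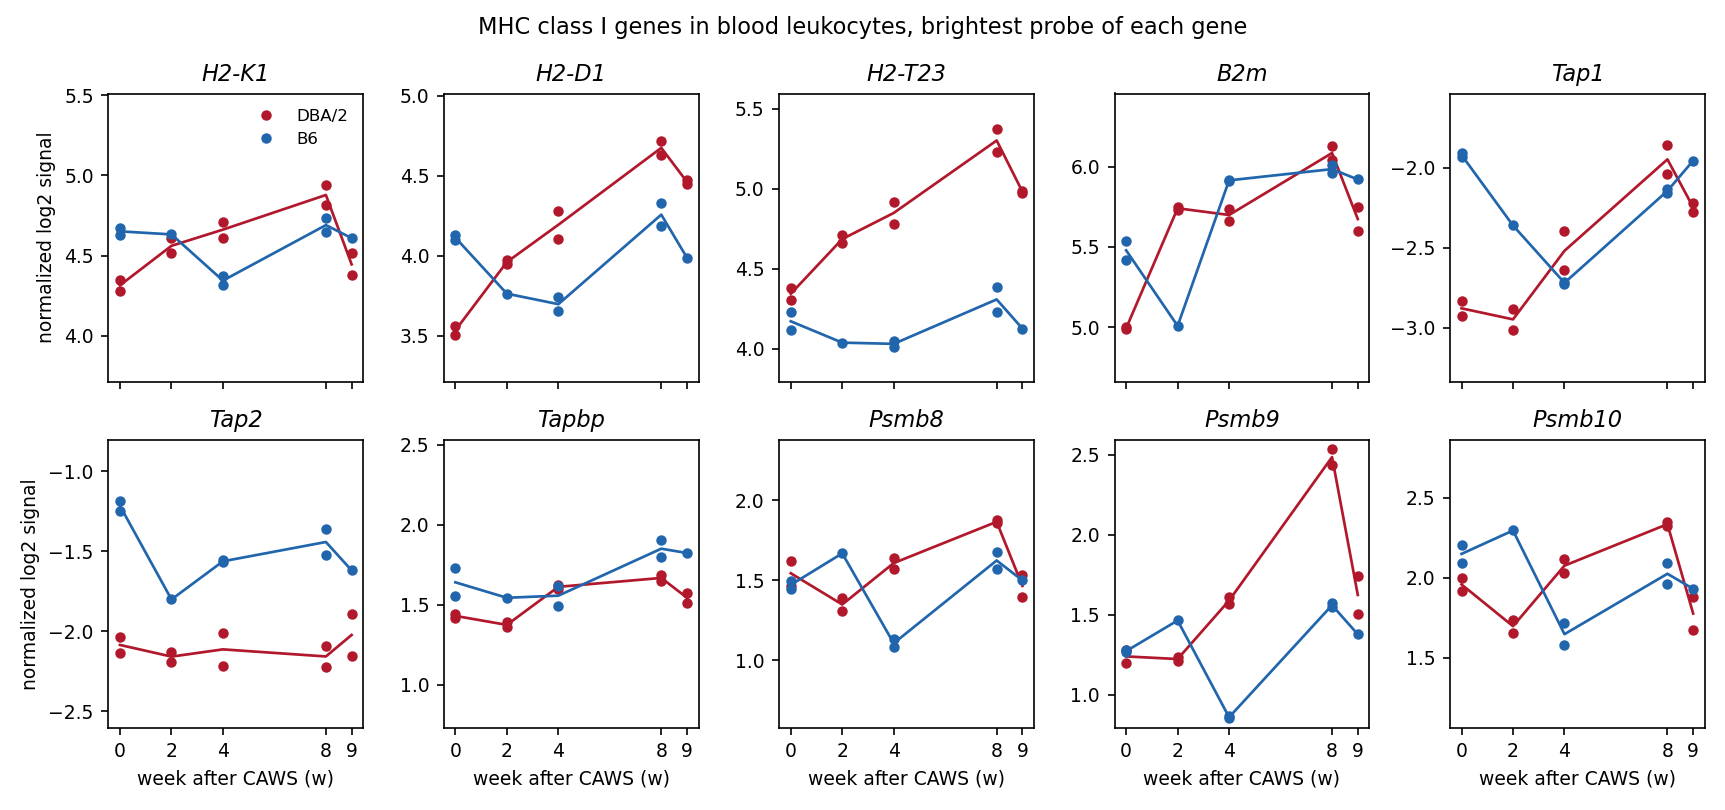
Normalized log2 signal of the brightest probe of each of the 10 genes (vertical axis, each panel spanning the same range) against the week after CAWS administration, with 1 point per sample and lines through the group means. In DBA/2 mice Psmb9 reached 2.44 and 2.53 at 8 w, above every B6 sample, while the Tap2 points of DBA/2 mice stayed between -2.22 and -1.89, below every B6 sample.

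H2-D1, a classical heavy chain that presents to CD8 T cells, changed the most among the heavy chains. Its brightest probe (mm8 chromosome 17, 34874545 to 34874777) read 3.56 and 3.51 in the DBA/2 samples at 0 w, 3.97 and 3.95 at 2 w, 4.28 and 4.11 at 4 w, 4.72 and 4.63 at 8 w, and 4.45 and 4.47 at 9 w. Every later DBA/2 sample lay above both 0 w samples, and the 8 w samples were the highest. The change at 8 w was 1.14 on the log2 scale (SE 0.09, adjusted p = 1.75e-05), which is 2.20-fold, and it was already 0.43 at 2 w. In B6 mice the same probe read 4.10 and 4.13 at 0 w, 3.76 at 2 w, 3.66 and 3.74 at 4 w, 4.19 and 4.33 at 8 w and 3.99 at 9 w. The B6 samples of 4 w lay below those of 0 w (change of -0.42, SE 0.09) and the 8 w samples just above them (0.14, which did not pass the test). The second H2-D1 probe passed the test in DBA/2 mice at 8 w but not at 2 w. It read 3.27 and 3.26 at 0 w and 3.49 and 3.47 at 2 w.

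H2-T23 encodes Qa-1, a non-classical heavy chain that NK cell receptors read. In DBA/2 mice it read 4.38 and 4.31 at 0 w, 4.71 and 4.66 at 2 w, 4.91 and 4.78 at 4 w, 5.37 and 5.23 at 8 w, and 4.99 and 4.98 at 9 w. All later samples were above 0 w without overlap, with a change of 0.34 at 2 w and of 0.96 (SE 0.09), or 1.94-fold, at 8 w. In B6 mice the values stayed between 4.01 and 4.39 over all weeks, and no change passed the test.

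H2-K1, the other classical heavy chain, has 4 probes. The brightest read 4.35 and 4.28 in DBA/2 mice at 0 w, 4.61 and 4.51 at 2 w, 4.71 and 4.61 at 4 w, 4.94 and 4.81 at 8 w, and 4.51 and 4.38 at 9 w. The rise of 0.56 at 8 w (SE 0.09, 1.48-fold) passed the test, while at 9 w the change of this probe was 0.13 and did not. In B6 mice it read 4.67 and 4.63 at 0 w, 4.63 at 2 w, 4.37 and 4.32 at 4 w, 4.73 and 4.65 at 8 w, and 4.61 at 9 w, so that only the 4 w samples lay apart, below the rest. In the late average all 4 probes rose in DBA/2 mice, by 0.39, 0.46, 0.56 and 0.75, and the changes in B6 mice were between -0.14 and 0.05 and did not pass the test. The probes differed at 9 w in DBA/2 mice. By brightness, the third read 1.86 and 1.85 at 0 w and 2.36 and 2.27 at 9 w. The fourth read -0.90 and -0.995, then -0.55 and 0.10, and so both were higher. The second read 3.26 and 3.34, then 3.42 and 3.25, which overlap.

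B2m, the light chain of every class I molecule, had the largest rise of the members at 2 w in DBA/2 mice. Its brightest probe (mm8 chromosome 2, 121844106 to 121844165) read 5.0 and 4.99 at 0 w, 5.73 and 5.75 at 2 w, 5.74 and 5.66 at 4 w, 6.13 and 6.04 at 8 w, and 5.75 and 5.6 at 9 w. The later weeks did not overlap with 0 w, and the change was 0.75 at 2 w (SE 0.08, adjusted p = 0.000464) and 1.09 at 8 w, or 2.14-fold. In B6 mice B2m read 5.54 and 5.42 at 0 w, 5.01 at 2 w, 5.91 and 5.92 at 4 w, 6.01 and 5.96 at 8 w, and 5.92 at 9 w. It was the one member that rose in B6 mice at each of the last 3 times, by 0.44 at 4 w, 0.51 at 8 w and 0.44 at 9 w, after a fall of 0.47 at 2 w, where there is 1 sample. The second probe gave like changes. Platelet markers moved at the same times. In the single B6 2 w sample the median change of the 5 was -1.41. In B6 mice 4 were higher at 4 w, against 6.02% of all probes, and 3 at 8 w, against 11.0%. In DBA/2 mice all 5 were higher at 2 w (median 0.62), against 7.90%. Their summed level was 116 in the B6 2 w sample and between 306 and 428 in the other B6 samples, and their part in the B2m values was not tested. The third, which the files name for the cDNA AK086184 at 121840304 to 121840363, changed by -0.20 in DBA/2 mice in the late average, which did not pass the test, and therefore went apart from the other 2.

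Tap1 and Tap2 form the transporter together. In DBA/2 mice Tap1 rose and no change of Tap2 passed the test, while in B6 mice both fell at 2 w. Tap1 in DBA/2 mice read -2.83 and -2.93 at 0 w, -2.88 and -3.01 at 2 w, -2.40 and -2.64 at 4 w, -2.04 and -1.86 at 8 w, and -2.22 and -2.28 at 9 w. The 2 w samples overlapped with 0 w, and from 4 w on all samples were above it. The change was 0.36 at 4 w, 0.93 at 8 w (SE 0.10, adjusted p = 0.000159, 1.91-fold) and 0.63 at 9 w. In B6 mice Tap1 started high and fell, with -1.91 and -1.93 at 0 w, -2.36 at 2 w, -2.73 and -2.71 at 4 w, -2.15 and -2.13 at 8 w, and -1.96 at 9 w. The falls of 0.44 at 2 w and 0.80 at 4 w passed the test, and the changes of -0.22 at 8 w and -0.04 at 9 w did not.

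Tap2 in DBA/2 mice stayed between -2.22 and -1.89 in all 10 samples, and its change in the late average was -0.05 (95% interval -0.27 to 0.17). In B6 mice it read -1.25 and -1.19 at 0 w and -1.80 in the single 2 w sample, a change of -0.58 that passed the test, and between -1.62 and -1.36 later. Tapbp encodes tapasin, which holds the transporter and the empty class I molecule together. Its brightest probe read 1.42 and 1.44 in DBA/2 mice at 0 w and 1.68 and 1.65 at 8 w, and in B6 mice 1.55 and 1.73 and then 1.80 and 1.90. The DBA/2 groups did not overlap, but the change of 0.24 (95% interval 0.05 to 0.43) did not pass the test (adjusted p = 0.0718).

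Among the inducible proteasome subunits, Psmb9 had the largest change in DBA/2 mice. In DBA/2 mice it read 1.2 and 1.28 at 0 w, 1.21 and 1.24 at 2 w, 1.61 and 1.57 at 4 w, 2.53 and 2.44 at 8 w, and 1.5 and 1.74 at 9 w. The 2 w samples lay within the range of 0 w, the 8 w samples stood above all others, and those of 9 w were back near 4 w. The change of 1.25 at 8 w (SE 0.09, adjusted p = 1.09e-05), or 2.37-fold, was the largest of any member in any week against 0 w. Within each of the slides that hold DBA/2 samples of both weeks it was 1.34 and 1.15. In B6 mice Psmb9 read 1.27 and 1.28 at 0 w, 1.46 at 2 w, 0.85 and 0.87 at 4 w, 1.55 and 1.57 at 8 w, and 1.38 at 9 w. Both B6 samples of 4 w were below every other sample of either strain, a fall of 0.41, and those of 8 w were 0.29 above 0 w.

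Psmb8 and Psmb10 also rose in DBA/2 mice at 8 w, with smaller values of the change. Psmb8 (its brightest probe) read 1.47 and 1.62 in DBA/2 mice at 0 w, 1.31 and 1.39 at 2 w, 1.64 and 1.57 at 4 w, 1.88 and 1.86 at 8 w, and 1.40 and 1.53 at 9 w. Psmb10 read 2.00 and 1.92, then 1.74 and 1.66, 2.12 and 2.03, 2.35 and 2.32, and 1.88 and 1.68. In both genes the 2 w samples were the lowest or among the lowest and the 8 w samples the highest, and the rise at 8 w passed the test (0.32 for Psmb8 and 0.38 for Psmb10). In B6 mice both fell at 4 w, Psmb8 by 0.36 and Psmb10 by 0.50. Their 4 w samples (1.08 and 1.13 for Psmb8, 1.72 and 1.58 for Psmb10) lay below all other B6 samples. The second Psmb8 probe passed the test neither in DBA/2 mice at 8 w nor in B6 mice at 4 w. Its DBA/2 change from 0 w to 8 w was 0.53 and 0.52 within the slides that hold samples of both weeks. These Psmb8 calls thus rest on its brightest probe alone.

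For the constitutive subunits that these 3 replace, no change passed the test in DBA/2 mice at 8 w. At that time the log2 change of Psmb5, the counterpart of Psmb8, was 0.18, that of Psmb6, the counterpart of Psmb9, was 0.01, and that of Psmb7, the counterpart of Psmb10, was 0.32, while Psmb7 rose by 0.33 in the late average. The strain difference of the change was 0.24 for Psmb5, 0.12 for Psmb6 and 0.06 for Psmb7, without passing the test. Whether the inducible and constitutive subunits differ in their change was not tested.

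**Figure D2:**
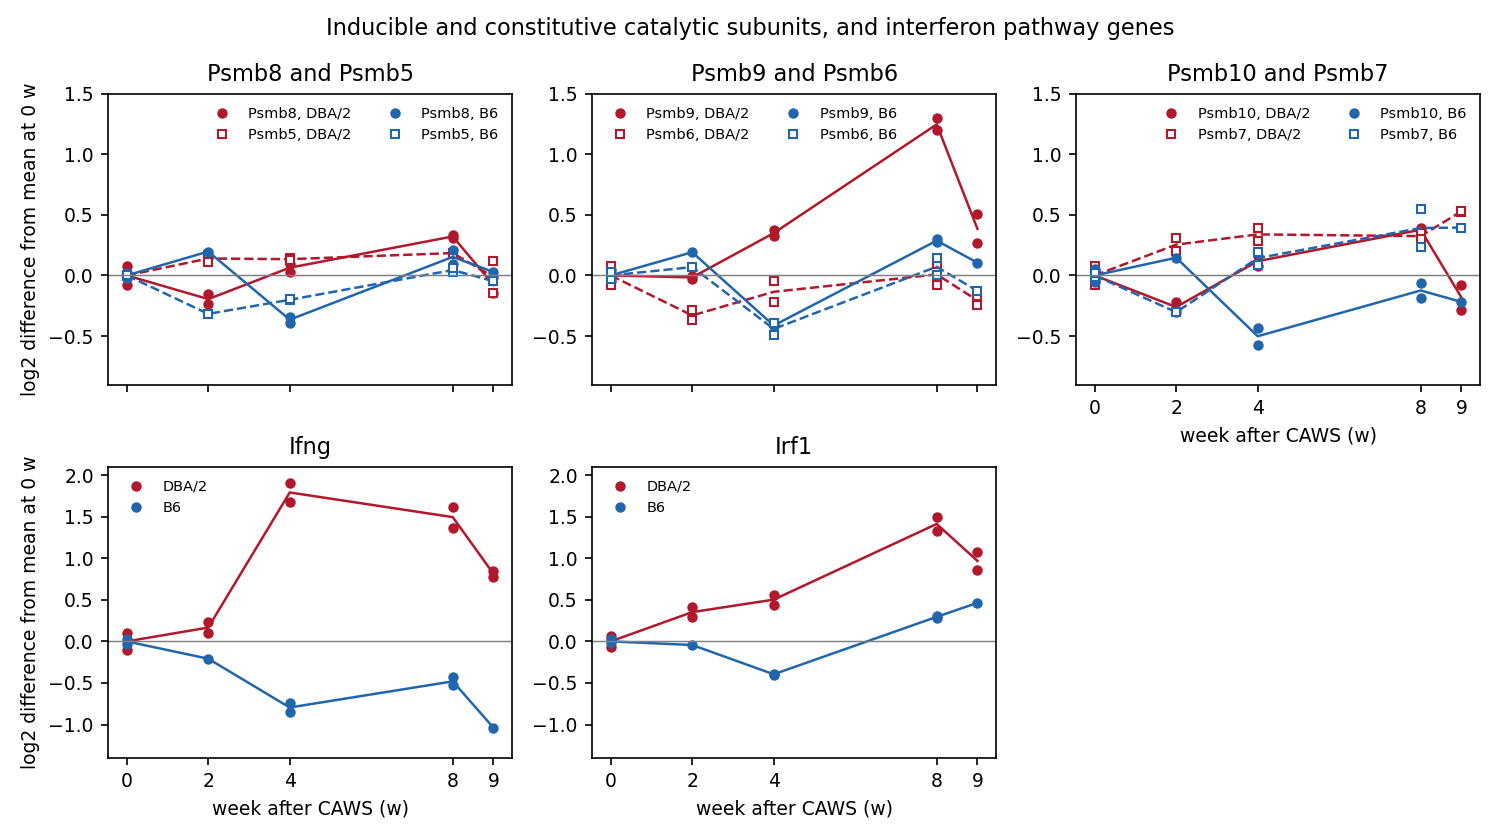
Log2 difference of each sample from its strain's mean at 0 w (vertical axis) against the week after CAWS administration, with lines through group means. In the upper panels filled circles are inducible and open squares constitutive proteasome subunits. Psmb9 in DBA/2 mice rose by 1.25 at 8 w while Psmb6 changed by 0.01, and in the lower panels Ifng and Irf1 are above 0 at 4 w and 8 w in DBA/2 mice.

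In B6 mice most of the falls against 0 w were at 4 w. At 2 w, 4 of the 18 probes had fallen, 2 of B2m and those of Tap1 and Tap2, against 7.74% of all probes. At 4 w, 8 probes had fallen, against 9.66%, namely 4 of the 7 heavy chain probes, Tap1 and 3 of the 4 inducible subunit probes, and the 2 B2m probes had risen, against 6.02%. At 8 w, 3 probes were higher than at 0 w (2 of B2m and Psmb9), against 11.0%, and at 9 w the 3 B2m probes were, against 5.48%. In the late average, 2 probes of B2m were higher, against 7.28%, and Tap1 (-0.51) and Psmb10 (-0.31) were lower, against 7.73%. The B6 counts rest on both 0 w samples. At 4 w the count of 10 changed probes was 2 without B6 0 w replicate 1, 3 without B6 0 w replicate 2 or B6 4 w replicate 2, and 4 without B6 4 w replicate 1. Without scaling between arrays, where the median over all probes at B6 8 w is 0.98 in place of -0.04, all 18 probes were higher at B6 8 w, with a median of 1.17.

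The question whether the 2 strains changed differently was tested by subtracting the B6 change from the DBA/2 change, from 0 w to the late average. For 12 of the 18 probes the change was more positive in DBA/2 mice, against 6.48% of all probes, with a median of 0.52 over the 18 and of -0.04 over all probes. All 7 heavy chain probes were among them, with 2 of B2m, Tap1, Psmb9 and Psmb10. The difference was 1.16 for Tap1 (SE 0.12, adjusted p = 0.000377), 1.04 for H2-D1, 0.86 for Psmb9, 0.73 for H2-T23, 0.59 for H2-K1, 0.56 for Psmb10 and 0.43 for B2m. For Tap1 it joins a rise in DBA/2 mice with a fall in B6 mice, for B2m a larger with a smaller rise, and for Psmb10 a fall in B6 mice with a DBA/2 change of 0.25 that did not pass the test (adjusted p = 0.0652, and 0.00864 with the replicate block). For H2-K1, H2-D1, H2-T23 and Psmb9 a rise in DBA/2 mice stands beside a B6 change between -0.14 and -0.00 that did not pass. It did not pass the test for Tap2 (0.24, 95% interval -0.08 to 0.55), Tapbp (0.15, -0.09 to 0.38) or Psmb8 (0.30, 0.06 to 0.54).

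**Figure D3:**
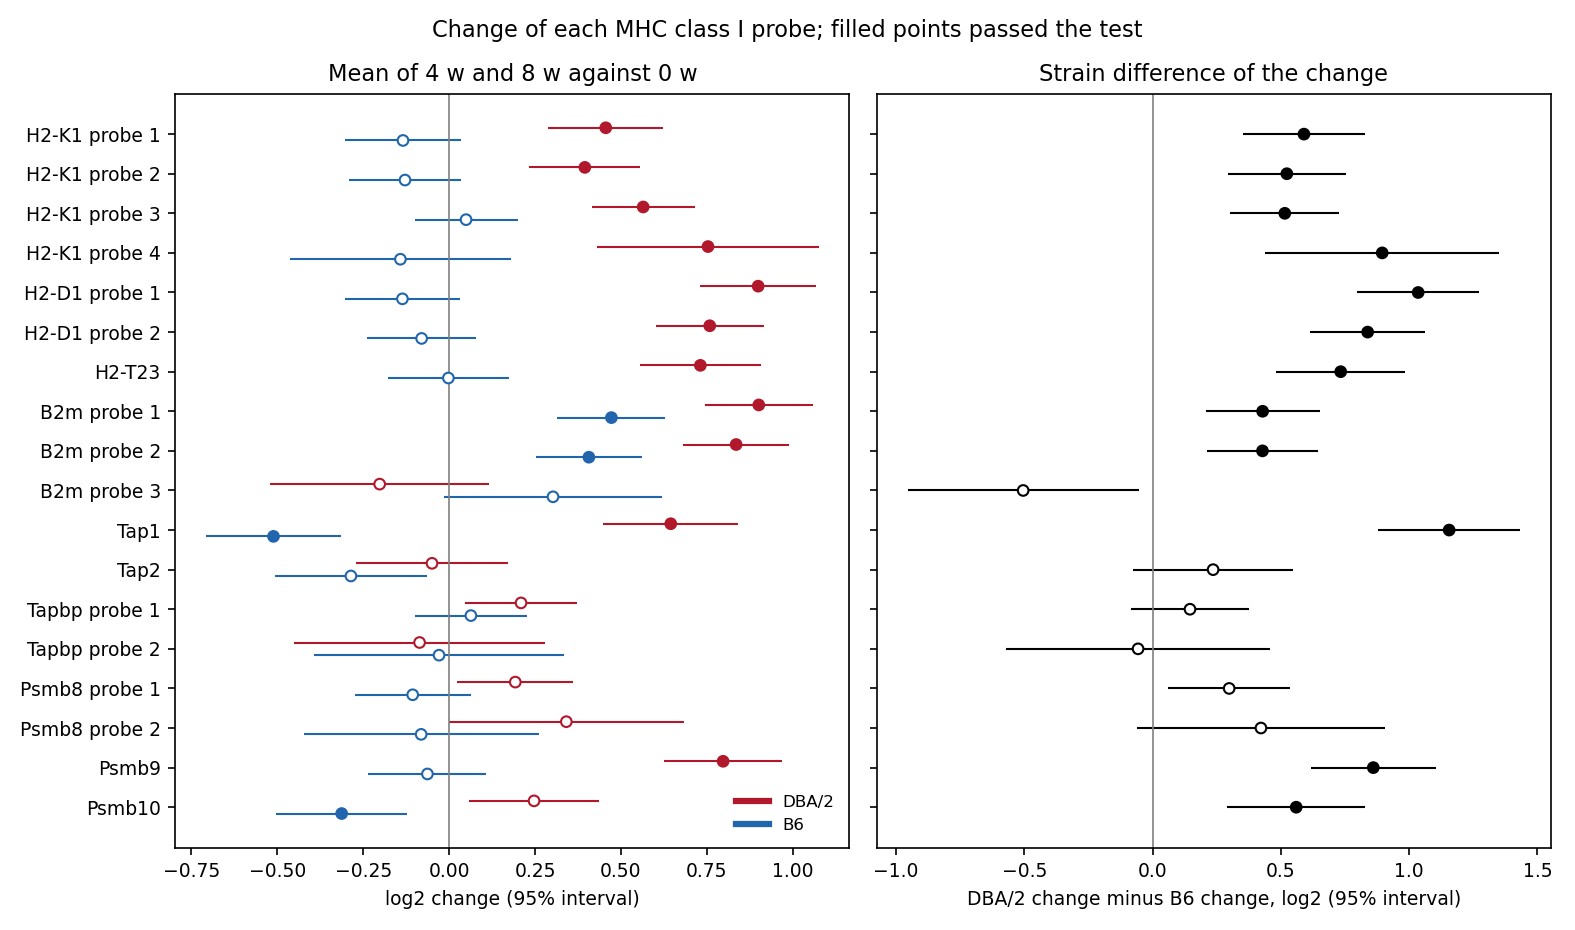
Log2 change of each of the 18 probes from 0 w to the average of the groups at 4 w and at 8 w in each strain (left) and the difference between strains (right), with 95% intervals of the limma fit and probes of a gene numbered by brightness. Filled points passed the test. In the right panel the 12 filled points all lie above 0, and the third B2m probe, at -0.50, is the lowest.

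After normexp background correction none of the 12 passed with limma (9 had an unadjusted p under 0.05), while 17 of 18 probes kept their sign, and over all probes the calls went from 3029 to 90. Without scaling between arrays the median over all probes moved from -0.04 to -0.64, and against it the median of the 18 probes of -0.08 is still higher. On that scale the differences for H2-K1 (-0.01), B2m (-0.17) and Psmb10 (-0.04) turn below 0. Counted from 2 w to 4 w, where hepatocyte marker sums were at most 1.11 in both strains, the strain difference was positive for Tap1 (0.79), Psmb8 (0.82), Psmb9 (0.97) and Psmb10 (1.03), against 11.6% of all probes. It was negative for 2 B2m probes (-0.95 and -1.15), against 7.99%, and did not pass the test for the heavy chains. All 5 platelet markers were negative in this contrast too (median -2.03), and their part in it was not tested. It rests on the single B6 2 w sample.

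Differences in level between the strains were described apart from the changes. Averaged over 0 w, 4 w and 8 w, 8 of the 18 probes were higher in DBA/2 mice, against 22.8% of all probes, and 6 were lower, against 19.7%. The samples of the strains were on different slides except for DBA/2 9 w, so strain and slide cannot be told apart here. Tap2 was lower in DBA/2 mice by 0.71 on the log2 scale (SE 0.07), or 1.64-fold, and every DBA/2 sample was below every B6 sample. H2-T23 was higher by 0.66 (SE 0.05), a gap that was 0.17 at 0 w and 0.99 at 8 w. Psmb9 was higher by 0.54, Psmb8 by 0.27 and Psmb10 by 0.18, but these were not constant. At 0 w the differences were -0.03, 0.07 and -0.19, which did not pass the test, and at 4 w they were 0.73, 0.50 and 0.43, which did.

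The size of the strain difference depended on the probe for the classical heavy chains. The 2 H2-K1 probes that overlap near 33606564 to 33606626 of mm8 chromosome 17 differed by 0.06 and 0.00 between strains, which did not pass the test. These averages join opposite differences. The means of the brightest probe in DBA/2 and B6 mice were 4.31 and 4.65 at 0 w and 4.66 and 4.34 at 4 w. Those of the other were 3.30 and 3.65 at 0 w and 3.61 and 3.31 at 4 w. The probe at 33609987 to 33610233 was lower in DBA/2 mice by 0.26, and that at 33609797 to 33609856 by 1.59 (SE 0.10), or 3.02-fold. In the latter the DBA/2 samples lay between -0.995 and 0.10 and the B6 samples between 0.88 and 1.33, without overlap. H2-D1 also depended on the probe, with 0.11 for the brighter probe and -0.73 (SE 0.05) for the probe at 34874240 to 34874299. The brighter H2-D1 probe turned too, with DBA/2 and B6 means of 3.54 and 4.11 at 0 w and of 4.19 and 3.70 at 4 w. The changes with the weeks differed far less between these probes, with strain differences of the change of 0.52 to 0.90 for H2-K1 and of 1.04 and 0.84 for H2-D1. Whether a probe matches the d haplotype as well as the b haplotype was not tested, and heavy chain genes are near copies of each other, so that a probe may also read a neighbour.

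**Figure D4:**
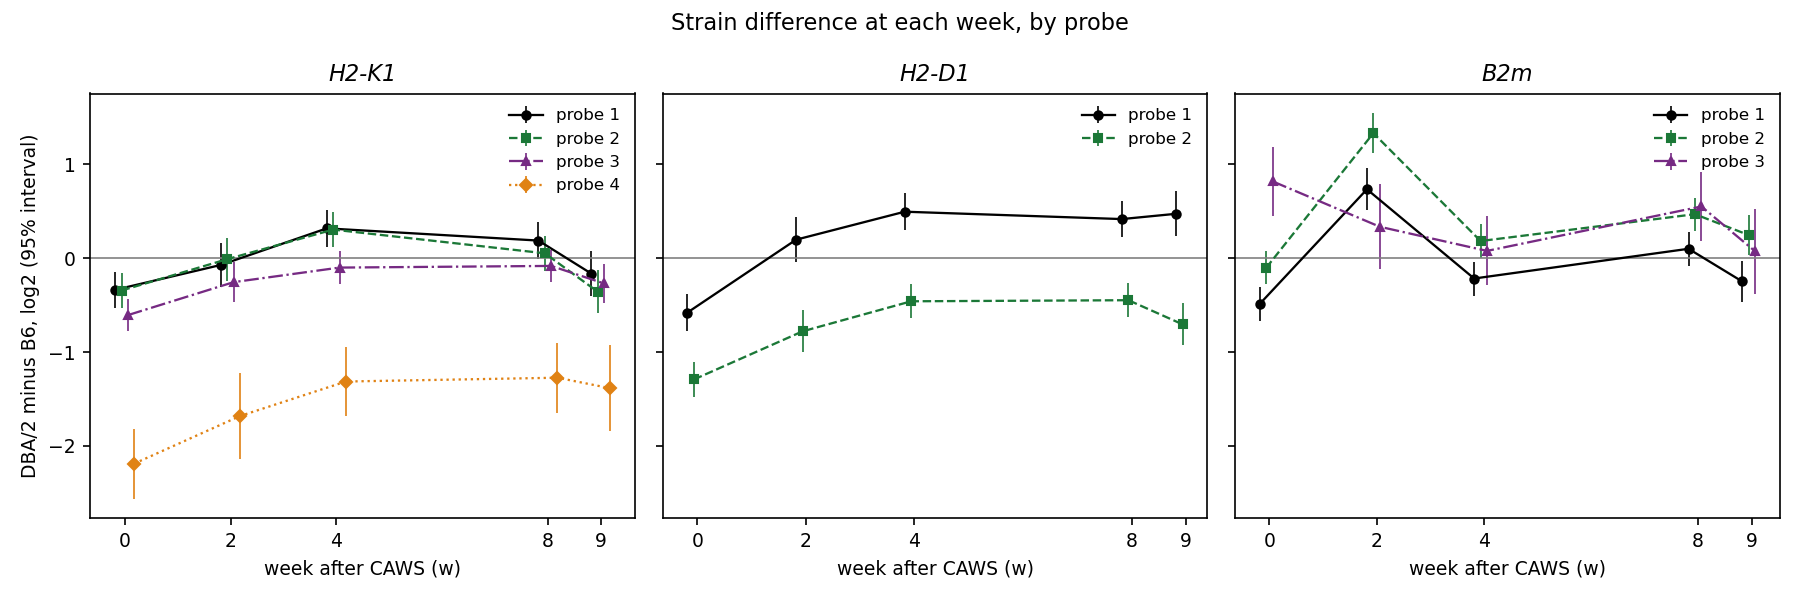
DBA/2 minus B6 normalized log2 signal (vertical axis) at each week after CAWS administration (horizontal axis) for each probe of H2-K1, H2-D1 and B2m, with 95% intervals of the limma fit. The fourth H2-K1 probe lies between -2.19 and -1.27 at all weeks, yet its line rises from 0 w to 4 w like those of the other 3.

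The same dependence was seen in Tapbp and B2m. The second Tapbp probe (33536605 to 33536664) was higher in DBA/2 mice by 0.54 while the brighter one (33539531 to 33539590) differed by -0.11. B2m was lower by 0.20 with its brightest probe and higher by 0.18 and 0.48 with the others. With quantile normalization the first of these became 0.13. At 0 w alone, 9 of the 18 probes were lower in DBA/2 mice, against 15.4%, and 2 higher, against 17.2%. At 4 w, where hepatocyte sums were at most 1.11 in both strains, 3 were lower, against 13.0%, and 7 higher, against 19.1%. Thus Tap1 was 0.96 lower in DBA/2 mice at 0 w and differed by 0.20 at 4 w and at 8 w, which did not pass the test.

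Of the other class I heavy chains of the H2 complex, 13 of the 24 listed could be tested, and 8 rose in DBA/2 mice in the late average, where 9.80% of all probes were higher and 13.1% lower, with a median change of 0.53. H2-Q7 (0.85), H2-Q1 (0.79) and H2-T10 (0.71) rose the most. In the strain difference of the change 8 were positive, against 6.48% of all probes, and 1, H2-T24 (-0.89), was negative, against 6.73%. H2-T24 rose in B6 mice by 0.69 and changed by -0.19 in DBA/2 mice. H2-Bl was lower in DBA/2 mice at every week, by 1.40 on the mean of 0 w, 4 w and 8 w, and still rose there by 0.54.

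Among 5 class I-like heavy chains outside the complex, 2 rose and 1 fell in DBA/2 mice in the late average, against the same shares of all probes. Fcgrt, the heavy chain of the neonatal Fc receptor, rose by 0.75 and fell in B6 mice by 0.58, and Hfe, which takes part in iron sensing, rose by 0.69. Cd1d1, which presents lipids, fell by 0.40 in DBA/2 mice and by 0.49 in B6 mice. Of the 5 chaperones of the loading complex, Calr (0.35) and Hspa5 (0.55) rose in DBA/2 mice, and Hspa5 differed between strains in its change (0.76). Pdia3 changed by 0.32 in DBA/2 mice, which did not pass the test. Against the same shares of all probes, of 11 other subunits of the proteasome core 2 rose in DBA/2 mice, Psmb2 (0.40) and Psmb4 (0.25), and of 4 activator and assembly genes Psme1 (0.26) and Pomp (0.37) did, while Psme2 changed by 0.12. Of 5 peptidases 1 fell, Lnpep (-0.77). For the core subunits and the peptidases these counts are near those shares.

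Of the 10 regulators tested, 5 rose and 1 fell in DBA/2 mice. In the late average 9.80% of all probes were higher in these mice and 13.1% lower. Ifng, which encodes interferon-gamma, read -3.37 and -3.58 at 0 w, -3.24 and -3.38 at 2 w, -1.57 and -1.80 at 4 w, -1.86 and -2.11 at 8 w, and -2.63 and -2.70 at 9 w. It was high from 4 w on, the highest at 4 w, while Psmb9 and Tap1 were highest at 8 w. H2-D1, H2-T23 and B2m had already passed the test at 2 w. The part of Ifng in the class I values was not tested. B6 mice showed a fall of 0.79 at 4 w. Irf1, an interferon regulatory factor, rose by 0.96 in the late average in DBA/2 mice, with a strain difference of the change of 1.01. The class II regulator Ciita fell by 0.74. Nlrc5, the class I transactivator, had no probe under that name.

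Markers of other cell types moved in the same comparisons. In the strain difference of the change, 6.48% of all probes were positive and 6.73% negative. There, 5 of 6 NK cell markers, 6 of 7 monocyte markers and 4 of the 6 tested markers of tissue macrophages were positive. Of the 7 neutrophil markers 1 was positive and 1 negative. Of 5 erythroid markers 4 were positive, of 6 B cell markers 3 were negative, and of 5 platelet markers 1 was negative. The summed NK cell level was 2.01 to 2.09 in DBA/2 mice at 0 w and 3.52 to 3.65 at 8 w, and in B6 mice 3.68 to 3.74 at 0 w and 1.93 to 1.95 at 4 w. The summed monocyte level was 105 to 111 at 0 w and 245 to 268 at 8 w in DBA/2 mice, and 144 to 154 and 201 to 218 at these weeks in B6 mice. Of 9 T cell markers 5 fell in DBA/2 mice in the late average, where 13.1% of all probes fell and 9.80% rose. The summed T cell level was 11.8 at 0 w and 7.44 to 7.50 at 8 w. In the same comparison 4 of 6 B cell markers fell and 4 of 5 platelet markers rose. Their part in the class I values was not tested.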

How the data were processed

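Leukocyte RNA from whole blood was hybridized to 1-colour Agilent arrays. The authors deposited scanner output of Feature Extraction with a processed signal intensity per spot, background-subtracted, and a value table whose log2 values carry no scaling between arrays. Here, outlier spots were left out, spots of a probe averaged, and the log2 intensities of each array were centred on their 75th percentile among 11536 probes that every array detected above background. The 2 arrays of B6 0 w replicate 2 were averaged, which leaves 18 samples. limma 3.58.1 (R 4.3.3) was fitted to 22939 probes that passed the same detection in 2 or more samples, with 1 mean per group and Benjamini-Hochberg adjustment. The fit has 8 residual degrees of freedom, and single-sample groups borrow the spread of the others. Gene values are those of the brightest probe, and the text names every member and up to 3 genes per list with the largest called changes. Genes were named from the scanner files (mm8 positions), promoters from RefSeq (GRCm38.p6). The fit was tested on simulated data. Alternatives were normexp, quantile, another percentile, the unscaled table, other filters, replicate and slide blocks, and each sample left out. The members and lists were chosen with earlier results of these data known. A gene of the regulator list and a promoter motif are not reported here.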

Additional observations from a re-analysis of the deposited data

Results flagged for a closer look

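The change from 0 w to the average of the groups at 4 w and at 8 w differed between the strains for 7 of the 10 genes, by limma's test of the difference itself. Over all probes 6.48% were called in this direction, and after normexp background correction none of the 18 member probes passed (9 had an unadjusted p under 0.05). The log2 difference, DBA/2 minus B6, was 0.59 for H2-K1, 1.04 for H2-D1, 0.73 for H2-T23, 0.43 for B2m, 1.16 for Tap1, 0.86 for Psmb9 and 0.56 for Psmb10. With the deposited values left unscaled it was -0.01 for H2-K1, -0.17 for B2m and -0.04 for Psmb10. In the same contrast 5 of 7 hepatocyte markers and 5 of 6 NK cell markers were positive, and their part in these differences was not tested.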

How the results depend on the processing

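After normexp background correction the number of the 18 probes past the limma threshold was 0 for DBA/2 2 w (3 at an unadjusted p under 0.05), 0 for DBA/2 4 w (8), 8 for DBA/2 8 w, 2 for DBA/2 9 w, 6 for the DBA/2 mean of 4 w and 8 w, 0 for B6 2 w (1), 4 w (3), 8 w (4), 9 w (2) and the B6 mean (2), 0 for the strain difference of the change (9) and 6 for the level difference. Quantile normalization gave 9 for B6 8 w and 1 for B6 9 w, and the percentile over all probes 6 for B6 4 w. The unscaled table gave 4 for B6 4 w, 18 for B6 8 w, 9 for B6 9 w, 12 for the B6 mean and 4 for the strain difference, of which 2 were higher and 2 lower (8 of 18 with the reported sign). DBA/2 9 w gave 2 higher and 4 lower there, and DBA/2 2 w 2 higher and 2 lower, or 3 and 2 with quantile normalization. Without the filter on dim probes the counts were 2 and 4 for DBA/2 2 w and 4 w, 1 for B6 2 w, 4 w and 8 w, 0 for B6 9 w (4 unadjusted), 2 for the B6 mean, 5 for the strain difference and 9 for the level difference. The cause of these changes was not tested. The shares of all probes called under the settings of this section are not given in it. The counts thus show how the calls moved, not how the 18 probes stand against all probes. On the unscaled table the median change of all probes at B6 8 w was 0.98.

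The labels tie same-numbered samples by a number only, though they share a scan day and, for DBA/2 mice up to 8 w and some B6 samples, a slide: their deviations correlated between -0.0109 and 0.455, over 0.1 in 12 of 28 pairs. With the replicate block the counts were 7 for DBA/2 2 w, 5 for B6 8 w, 16 for the DBA/2 mean and 15 for the strain difference. The slide block gave 8 for DBA/2 2 w, and slide as a random block 10 for DBA/2 2 w and 5 for B6 8 w. The strain level difference and DBA/2 9 w could not be fitted with a fixed slide block. Counted from 2 w to 4 w, chosen after seeing the data, the strain difference was called for 6.

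Leaving out each sample gave 2 to 5 for DBA/2 2 w, 5 to 11 for 4 w, 11 to 13 for 8 w, 8 to 10 for 9 w and 11 to 12 for the mean, 1 to 4 for B6 2 w, 2 to 12 for 4 w, 2 to 3 for 8 w, 1 to 3 for 9 w and 2 to 4 for the mean, 8 to 12 for the strain difference and 11 to 14 for the level difference. B6 2 w gave 1 without B6 0 w replicate 1 and 2 without replicate 2, B6 9 w gave 1 without either, and the B6 mean 2 without replicate 1. The strain difference was 8 without DBA/2 0 w replicate 2.

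Directions turned with the unscaled table for Tapbp (-0.32) and Psmb9 (-0.047) at DBA/2 9 w, Tap1 (0.80), Tap2 (0.80) and Psmb10 (0.90) at B6 8 w, H2-K1 (0.41) at B6 9 w, H2-K1 (0.39), H2-D1 (0.39), H2-T23 (0.53), Tap1 (0.017), Psmb8 (0.42), Psmb9 (0.46) and Psmb10 (0.22) in the B6 mean, H2-K1 (-0.015), B2m (-0.17), Tapbp (-0.46) and Psmb10 (-0.044) in the strain difference, and B2m (0.22), Tap1 (0.23) and Tapbp (0.31) in the level difference, and with quantile normalization for the B2m level difference (0.13). Of 3560 gene values under alternatives 3243 kept direction and side of the threshold, 233 lost the call, 63 gained one and 21 turned, and 63 of those counted as kept changed sign while past the threshold in neither. All 18 probes were well above background on every array.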
